A study of Mus musculus with 2 samples.

Results

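Sox5, Sox6, Sox9 and Wwp2, 3 transcription factor genes of cartilage formation and a ubiquitin ligase gene of the same tissue, were measured in limbs of mouse embryos at 12.5 days of development. They were matched by gene symbol and make up 4 of the 55536 gene entries of the GENCODE M21 quantification, with 42 of its transcripts. RNA came from limbs of healthy B6NCrl embryos, pooled over males and females, with 88 embryos in replicate 1 and 68 embryos in replicate 2, and no treatment or genotype was compared. PolyA plus RNA-seq libraries were prepared from 10 ng of RNA, with oligo-dT priming, spike-in RNA and fragmentation by a transposase. Levels are TPM, a deposited unit that normalises reads for effective transcript length and for depth, on the mm10 genome, and each library was quantified with the annotation GENCODE M21 and with the earlier GENCODE M4. Whole limbs were pooled, so fewer cells of a type and less RNA per cell cannot be told apart.

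Sox9 is the SoxE factor that starts the cartilage programme: it binds DNA through a high-mobility-group box and switches on collagen II, aggrecan and other matrix genes. Sox5 and Sox6 are closely related SoxD factors that have no activation domain of their own and act beside Sox9 on the same genes, and mice without both form very little cartilage. Wwp2 is a HECT-domain ubiquitin ligase of the NEDD4 family, and in mouse cartilage it is a target of Sox9. An intron of Wwp2 holds the hairpin of miR-140, a microRNA enriched in cartilage.

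Gene reads (expected counts) summed to 29633457 and 30118921 in replicates 1 and 2. All 6 limb markers were at 1 TPM or more in both libraries, led by Msx1 at 360.8 and 388.5 TPM, Prrx1 at 159.5 and 154.8 TPM and Pitx1 at 135.6 and 164.0 TPM, with Tbx4 lowest by mean, at 30.6 and 35.1 TPM. RNA of other cell types was present too. All 5 erythroid markers were at 1 TPM or more, led by the globins Hbb-y at 7123 and 7126 TPM and Hba-x at 1265 and 1217 TPM, then Alas2 at 33.8 and 29.4 TPM, with Gata1 lowest at 1.54 and 1.82 TPM. All 5 muscle markers were, led by Actc1 at 333.0 and 318.7 TPM, Myog at 92.9 and 86.3 TPM and Myh3 at 42.7 and 37.4 TPM, with Pax3 lowest at 1.40 and 1.24 TPM. So were the 4 tendon markers, Scx at 70.4 and 60.9 TPM, Mkx at 31.3 and 27.8 TPM, Fmod at 11.5 and 10.0 TPM and Tnmd at 1.54 and 1.44 TPM. Of 6 markers of Schwann cells and melanoblasts 5 were, led by Ngfr at 20.9 and 19.4 TPM and including Sox10 at 3.47 and 3.28 TPM, with Foxd3 lowest at 0.71 and 0.68 TPM. Of 6 markers of other organs only Afp was, at 3.97 and 2.35 TPM; Alb had 0.73 and 0.47 TPM, Sox2 had 0.41 and 0.72 TPM, and Nkx2-5 and Cdx2 were listed at 0.

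Wwp2 and Sox9 stood above Sox5 and Sox6 in both libraries. Wwp2 (ENSMUSG00000031930.11, chr8:107436365-107558595, plus strand) had 223.4 and 221.2 TPM, on 11102 and 10966 reads. Sox9 (ENSMUSG00000000567.5, chr11:112782224-112787760, plus strand) had 197.1 and 195.2 TPM, on 15706 and 15705 reads, and the libraries gave nearly equal values for both genes. Sox5 (ENSMUSG00000041540.16, chr6:143828425-144781977, minus strand) had 71.9 and 76.7 TPM, on 2470 and 2643 reads. Sox6 (ENSMUSG00000051910.13, chr7:115470872-116038796, minus strand) had 60.8 and 73.0 TPM, on 1867 and 2190 reads, and its 2 libraries were the farthest apart of the 4 genes. Means were 222.3 ± 1.55 TPM for Wwp2, 196.2 ± 1.40 for Sox9, 74.3 ± 3.38 for Sox5 and 66.9 ± 8.58 for Sox6 (SD, n = 2). Among protein-coding genes ranked by mean TPM, Wwp2 was at place 651, Sox9 at 743, Sox5 at 2334 and Sox6 at 2599.

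Neighbours in this order were taken as apart where their ranges over the libraries did not overlap and their log2 ratio in each library exceeded the spread, taken as the 95th percentile, over genes of the level of the lower one, of the size of the replicate log2 ratio. That percentile was 0.20 for genes of 100 TPM or more and 0.29 for genes of 20 to 100 TPM. Sox9 stood above Sox5 by 2.74-fold and 2.55-fold in replicates 1 and 2, and above Sox6 by 3.24-fold and 2.67-fold, past the spread in both. Wwp2 exceeded Sox5 by 3.11-fold and 2.89-fold, and Sox6 by 3.67-fold and 3.03-fold. The log2 ratio of Wwp2 over Sox9 was 0.18 in each library and that of Sox5 over Sox6 was 0.24 and 0.07, so the members of either pair did not differ beyond the spread. With GENCODE M4 the order turned for the first pair, with Wwp2 at 109.2 and 106.7 TPM below Sox9 at 207.7 and 206.3 TPM, and Sox6, at 16.1 and 19.0 TPM, stood well below Sox5, at 72.2 and 76.3 TPM.

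**Figure D1:**
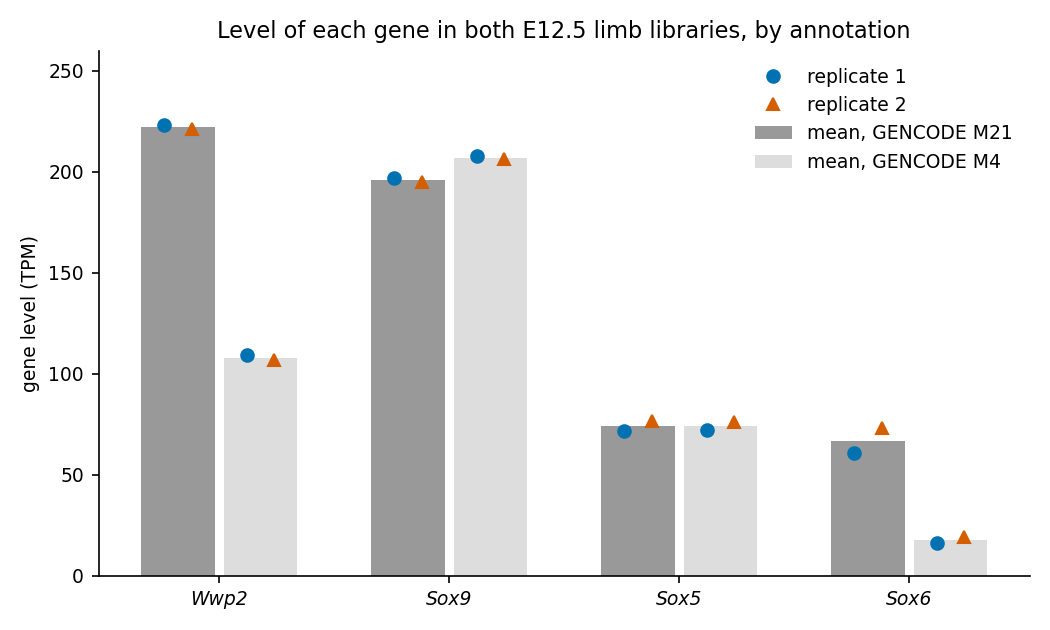
Level of each gene in TPM (vertical axis, from 0), with the M21 annotation left of M4 for each gene; circles are replicate 1, triangles replicate 2 and bars their mean. Sox9 and Sox5 have like levels under both annotations, while Wwp2 averages 222.3 TPM with M21 and 107.9 TPM with M4, and Sox6 66.9 TPM and 17.5 TPM.

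Between the libraries, 0 of the 4 genes were called different at an adjusted p under 0.05 and a TPM ratio of at least 2-fold, where 1.07% of the 15926 genes tested were called. An exact binomial test was run on the expected counts after rounding, adjusted by Benjamini-Hochberg over all genes at a mean of 1 TPM, and its p covers the counting error of 2 libraries only. Sox6 was 1.20-fold higher in replicate 2 (log2 ratio 0.26, adjusted exact p = 7.95e-05), with a ratio under the fold required. An adjusted p under 0.05 was reached by Sox6 alone of the 4 and by 19.2% of all genes tested. Log2 ratios of replicate 2 over replicate 1 were 0.09 for Sox5 (adjusted exact p = 0.188), -0.01 for Sox9 (adjusted exact p = 0.408) and -0.01 for Wwp2 (adjusted exact p = 0.155). Before adjustment 2 of the 4, Sox6 and Wwp2, had an exact p under 0.05. The share of all genes at that limit before adjustment was not counted, and it is no less than the 19.2% after adjustment.

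The next higher and lower family members place these levels in the limb. Of 20 Sox genes, 12 (60%) were at 1 TPM or more in both libraries, against 58.1% of all protein-coding genes. Sox11, a SoxC factor of progenitor cells, came above Sox9, at 192.2 and 217.4 TPM, with a range that overlapped that of Sox9. Sox4, another SoxC factor, had 105.1 and 104.5 TPM and lay between Sox9 and Sox5. Below Sox6 came Sox18, a SoxF factor of blood and lymph vessels, at 18.3 and 17.9 TPM, a gap that closed with M4, where Sox18 had 19.3 and 18.9 TPM, close to Sox6. Sox8, like Sox9 a SoxE gene, averaged 8.37 TPM, and Sox10, the third SoxE gene and a marker of Schwann cells, averaged 3.38 TPM. Sox13, the third SoxD gene beside Sox5 and Sox6, averaged 5.37 TPM. The other family members at 1 TPM were Sox12 at a mean of 12.8 TPM, Sox17 at 6.37 TPM and Sox7 at 5.26 TPM, while Sry and Sox1 were listed at 0.

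Wwp2 was second among 9 ligases of the NEDD4 family, 8 of which were at 1 TPM or more in both libraries. Nedd4 itself, which targets membrane proteins, came above it at 655.4 and 650.4 TPM. Itch, a ligase known from immune cells, came below it at 55 and 59.0 TPM, and Hecw1 was lowest at 0.21 and 0.52 TPM. Wwp1, a close relative of Wwp2, had 8.78 and 8.74 TPM. This place between Nedd4 and Itch was the same with M4, where Wwp2 averaged 107.9 TPM, Nedd4 688.8 TPM and Itch 59.7 TPM.

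**Figure D2:**
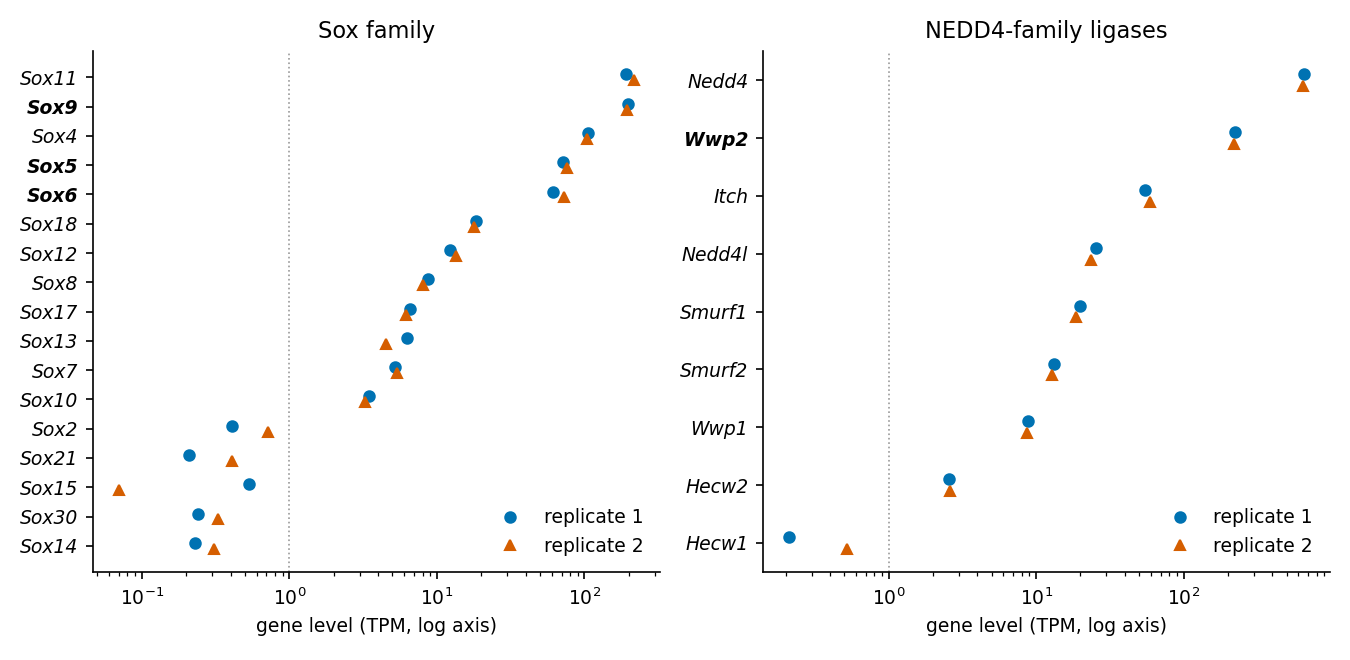
Level in TPM (log axis) of Sox genes (left) and NEDD4-family ligases (right) above 0 in both libraries, with M21; circles are replicate 1, triangles replicate 2, bold names the 4 genes described, and the dotted line 1 TPM. Sox9 follows Sox11 at the top, Sox5 and Sox6 lie between Sox4 at 104.8 TPM and Sox18 at 18.1 TPM, and Wwp2 lies between Nedd4 and Itch.

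The Wwp2 reads were assigned to transcripts that begin far apart. The annotation holds 11 Wwp2 transcripts. Wwp2-201 begins at the upstream first exon, has 24 exons and 4314 nt and encodes the whole ligase of 870 codons. Wwp2-205 begins in intron 10 of Wwp2-201, 108647 nt downstream, at chr8:107545012-107545346, its first exon. It has 15 exons and 1996 nt. Its coding sequence of 431 codons starts in frame at codon 440 of Wwp2-201 and is 100% identical to the 3′ part of that coding sequence, so it would encode the C-terminal end of the ligase, where the catalytic HECT domain lies, without the N-terminal end. It is the only transcript of the 4 genes whose start the annotation tags as supported by CAGE, an assay of capped RNA ends. The first 60 coding bases of both are shown, because they mark where each protein would begin, with the start codon in capitals.

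Wwp2-205: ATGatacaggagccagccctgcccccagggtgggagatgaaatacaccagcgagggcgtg

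Wwp2-201: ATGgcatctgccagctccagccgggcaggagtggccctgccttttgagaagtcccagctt

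Wwp2-205 had the highest TPM of the gene in both libraries, at 110.2 and 114.7 TPM, against 59.0 and 54.96 TPM for Wwp2-201. The ranges did not overlap, and the ratio was 1.87-fold and 2.09-fold. By TPM Wwp2-205 made up 50.6% ± 1.79 of the gene and Wwp2-201 25.6% ± 1.11 (SD, n = 2). By reads, which are not divided by length, the order turned: Wwp2-205 held 37.2% and 39.6% of Wwp2 reads (4127 and 4339), and Wwp2-201 44.2% and 42.1% (4910 and 4619). The deposited spread of the assigned count was 58.4 and 55.5 reads for Wwp2-205 and 57.6 and 58.6 reads for Wwp2-201, small beside either count. Beyond its first exon, of 335 nt, Wwp2-205 lies within exons of Wwp2-201, so reads there were divided between these transcripts by estimate. All 5 transcripts that begin at the upstream exon together had 60.95 and 56.98 TPM.

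Other Wwp2 entries of at least 5% of the gene had no coding sequence. Wwp2-203, which ends inside intron 11 and keeps part of it, had 25.2 and 25.5 TPM. Wwp2-206, an unspliced entry of 2653 nt, had 22.7 and 23.9 TPM, on 1146 and 1215 reads, and it is the only one of the 11 whose exon covers the miR-140 hairpin. These levels were nearly equal in the 2 libraries. Wwp2-210, which begins 24 nt after the hairpin, was assigned 156.9 reads in replicate 1 and 0 in replicate 2, so its level could not be told from 0.

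**Figure D3:**
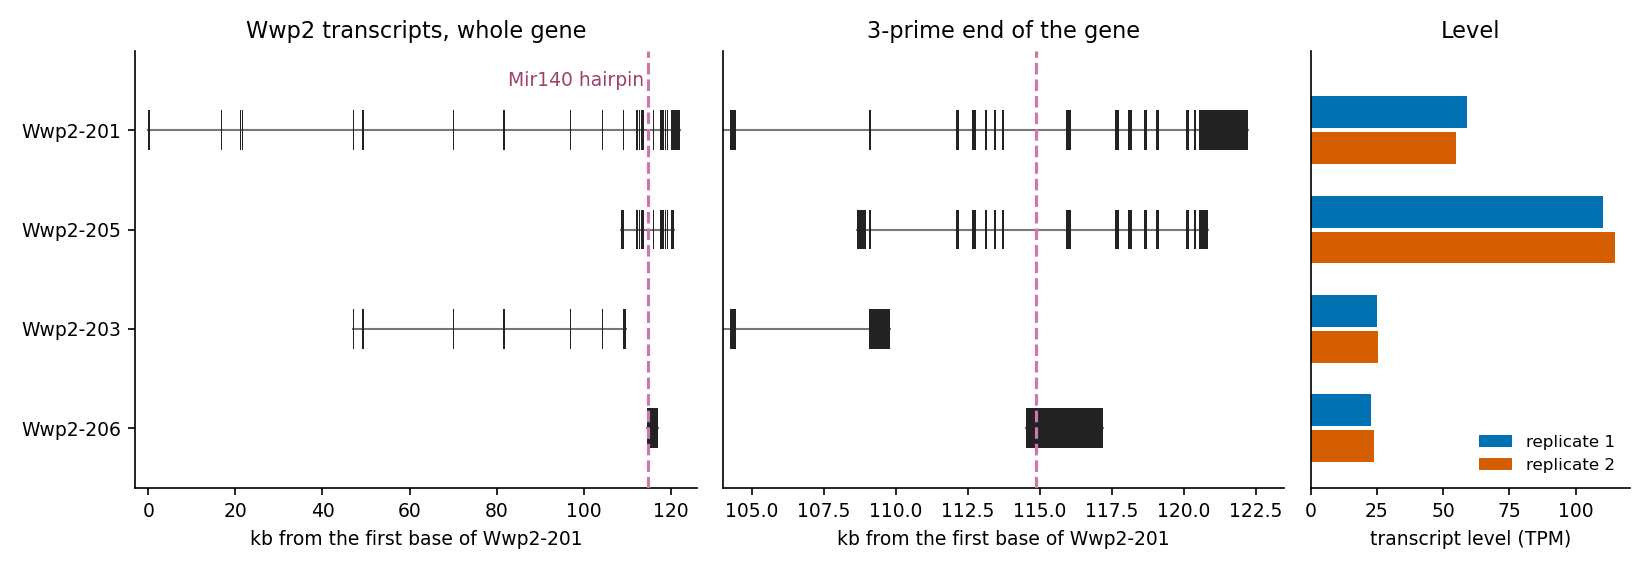
Exons (boxes) of the 4 Wwp2 transcripts with 5% or more of the gene's TPM, by distance in kb from the first base of Wwp2-201, for the whole gene (left, where short exons are widened to be seen) and to scale for its 3′ end (middle), with the level of each in TPM (right; blue, replicate 1; orange, replicate 2). Wwp2-205 begins 108647 nt into the gene, upstream of the hairpin of miR-140 (dashed line), and has the longest bars, at 110.2 and 114.7 TPM.

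The hairpin of miR-140 lies at chr8:107551244-107551313, in intron 16 of Wwp2-201 and intron 7 of Wwp2-205, 6232 nt downstream of the start of Wwp2-205 and 349 nt downstream of the first base of Wwp2-206. It is shown with the arm that gives miR-140-3p in capitals, and mature miR-140-3p with its seed, bases 2 to 8, in capitals (RefSeq, GRCm38.p6). The other arm of the hairpin is not marked.

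Mir140 hairpin: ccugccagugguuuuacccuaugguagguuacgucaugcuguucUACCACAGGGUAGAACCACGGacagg

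mmu-miR-140-3p: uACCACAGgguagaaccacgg

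The gene entry of Mir140 was listed with 0 reads and 0 TPM in both libraries. At 70 nt it is shorter than the 99 nt by which the tables shorten each length, its effective length is 0, and so the level of the microRNA was not measured. What was measured is the RNA of its host, Wwp2, and the reads assigned to the whole of Wwp2-206. That entry also covers an exon of Wwp2-201 and Wwp2-205, and reads over the hairpin itself were not counted.

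Genes known as targets of miR-140 and as substrates of the ligase were read beside it. The targets are listed for miR-140 as a whole and are not tied to the seed shown above. All 7 listed targets were at 1 TPM or more, led by Pdgfra, a growth factor receptor, at 124.5 and 117.8 TPM, Dnpep, an aspartyl aminopeptidase, at 86.6 and 88.3 TPM, and Igfbp5, which binds insulin-like growth factors, at 76.6 and 64.1 TPM. Adamts5, an aggrecan-cleaving protease, was lowest at 6.43 and 6.0 TPM, and Hdac4, a repressor of chondrocyte hypertrophy, had 17.8 and 20.7 TPM. Of 8 listed substrates 6 were at 1 TPM, among them Smad2 at 46.7 and 50.6 TPM and Smad3 at 33.9 and 31.8 TPM, which carry TGF-beta signals. Gsc, a homeobox factor that Wwp2 modifies in mouse cartilage, had 22.7 and 25.8 TPM, while Egr2 was lowest by mean, at 0.19 and 0.15 TPM. By the test between libraries 0 of the 7 targets and 0 of the 6 substrates tested were called, where 1.07% of all genes tested were.

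Sox5 had 14 transcripts in M21, 4 of them with 0 reads in both libraries. Sox5-202, of 2526 nt and 715 codons, led with 23.5 and 23.6 TPM, which was 31.8% ± 1.32 of the gene by TPM (SD, n = 2) and 45.6% and 43.3% of its reads. Sox5-201, of 7243 nt and 763 codons, had 4.59 and 5.21 TPM and 26.2% and 28.1% of the reads. Both encode the long form of the protein with its coiled coil and its high-mobility-group box. The rest of the TPM lay mainly in entries with no complete coding sequence: Sox5-208, of 351 nt, had 15.9 and 17.1 TPM, Sox5-213 had 9.83 and 11.4 TPM, Sox5-211 had 8.85 and 9.31 TPM and Sox5-207 had 6.05 and 6.10 TPM. Transcripts with a complete coding sequence summed to 28.1 and 28.8 TPM, on 1773 and 1885 reads. The short form of Sox5, known from mouse testis, begins inside the gene near base 143947106 of chromosome 6, and its complete transcript Sox5-204 was assigned 0 reads in both libraries, while the 4 transcripts that begin there held 13.0% and 13.3% of Sox5 TPM and 4.49% and 4.76% of its reads.

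Sox5-201 and Sox5-202 differ at the 3′ end, at bases 143828425 and 143832970 of chromosome 6, and so in length, 7243 and 2526 nt. In coding sequence they differ by an exon of 147 nt, 49 codons in frame, that Sox5-201 includes and Sox5-202 skips. Another exon is 3 nt longer in Sox5-202. Sox6 also has an exon of 147 nt. Both are shown because M21 holds Sox5 transcripts with and without this exon and no Sox6 transcript that skips it. Over 150 columns of a global alignment 85 bases (56.7%) were identical, and capitals mark bases that differ or have no partner.

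Sox5 exon, chr6:143907387-143907533, minus strand: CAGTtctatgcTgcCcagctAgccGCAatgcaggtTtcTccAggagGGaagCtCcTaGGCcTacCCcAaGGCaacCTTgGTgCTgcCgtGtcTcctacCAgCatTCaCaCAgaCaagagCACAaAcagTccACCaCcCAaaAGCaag

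Sox6 exon, chr7:115550010-115550156, minus strand: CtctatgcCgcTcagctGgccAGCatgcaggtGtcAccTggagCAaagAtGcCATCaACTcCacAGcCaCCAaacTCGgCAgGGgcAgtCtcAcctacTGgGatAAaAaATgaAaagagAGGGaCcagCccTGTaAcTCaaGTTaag

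With M21, the 7 Sox5 transcripts that span and skip the exon had 25.2 and 25.7 TPM, and the 3 with the exon had 19.5 and 20.6 TPM. The skipping kind had more TPM in both libraries, by log2 ratios of 0.37 and 0.32, past the spread of 0.29 used above for genes of this level. That spread is of whole-gene levels between libraries and does not cover how reads are divided among overlapping transcripts. The kinds also hold entries of unlike length, with 23.5 and 23.6 TPM of the skipping kind in Sox5-202, of 2526 nt. Whether skipping exceeded inclusion of the exon is therefore not shown by these ratios. By reads the skipping kind held 48.6% and 46.4% and the kind with the exon 41.7% and 43.0%, log2 ratios of 0.22 and 0.11 that lay within that spread. With M4 the order turned: the same 7 transcripts had 13.5 and 11.8 TPM and the same 3 had 25.4 and 26.8 TPM. The remaining Sox5 transcripts do not reach the exon. In Sox6 all 11 transcripts that reach the place include the exon, with 84.3% and 84.0% of Sox6 reads, and M21 holds none that skips it, so skipping in Sox6 could not have been counted.

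Of the 4 genes, Sox6 had the level that depended most on which transcripts were counted. It had 16 transcripts in M21, 4 with 0 reads in both libraries. The 3 transcripts under 500 nt, Sox6-211 of 448 nt, Sox6-207 of 331 nt and Sox6-208 of 479 nt, held 71.2% and 71.7% of Sox6 TPM but 14.5% and 14.9% of its reads. Sox6-211 had 18.6 and 19.3 TPM, Sox6-207 had 14.6 and 19.9 TPM and Sox6-208 had 10.1 and 13.1 TPM, so the leading transcript was Sox6-211 in replicate 1 and Sox6-207 in replicate 2. Neither has a complete coding sequence in the annotation. Sox6-209, a retained-intron entry, had 6.35 and 8.67 TPM. Sox6-210, of 8668 nt and 786 codons, had 5.89 and 5.77 TPM and yet held 53.4% and 45.0% of Sox6 reads. Complete coding transcripts of Sox6 summed to 7.54 and 8.42 TPM, on 1150 and 1287 reads.

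Of the 3 genes with more than 1 transcript, Sox6 was the 1 whose leading transcript differed between the libraries, where 7.52% of 9970 genes at a mean of 5 TPM did so. It was also the 1 of the 3 whose leading transcript was under 500 nt, where 2.78% of the same genes had such a leader. Sox9 has 1 transcript, Sox9-201, of 3 exons, 4135 nt and 507 codons, and all its reads belong to a complete coding sequence. Summed over complete coding transcripts only, Sox9 stood 7.02-fold and 6.77-fold above Sox5, 26.1-fold and 23.2-fold above Sox6, and 1.16-fold and 1.15-fold above Wwp2, whose sum was 169.5 and 169.9 TPM. This sum was chosen after the transcript values were seen.

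**Figure D4:**
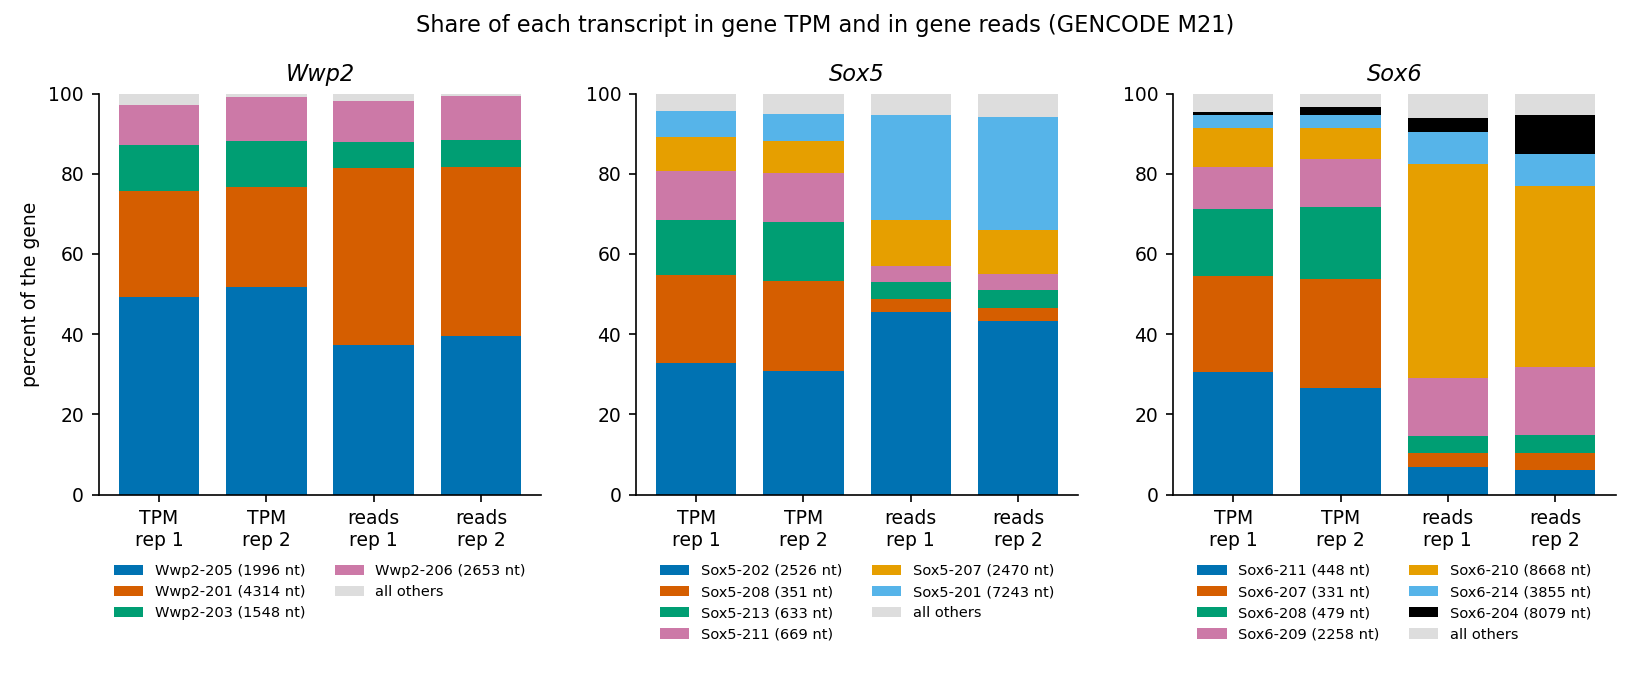
Percent of each gene's TPM and of its reads held by each transcript (stacked bars; transcripts with 5% or more in any bar are coloured, with their length, and all others are grey) in replicates 1 and 2, with M21. In Sox6 the 3 transcripts under 500 nt hold 71.2% and 71.7% of TPM and 14.5% and 14.9% of reads.

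Sox6 reads were also assigned to entries with different starts. Sox6-210 begins at base 116031047 of chromosome 7 and Sox6-204 at base 116038744. With M21, Sox6-210 had 996.5 and 986.1 reads and Sox6-204 had 65.0 and 209.4 reads, with a deposited spread of 41.0 and 67.7 reads. With M4, which has 5 Sox6 transcripts and no Sox6-210, Sox6-204 had 908.3 and 1063 reads. Sox6-202, which begins in M21 at the same base as Sox6-210 and had 0 reads there, had 223.1 and 260.9 reads with M4. The entry with the most Sox6 reads thus differed between the annotations. In M21 Sox6-210 ends at base 115470872, and Sox6-202 and Sox6-204 at base 115471344, so Sox6-210 differs from them at its 3′ end too. Which start the RNA came from was not measured. The 250 bases before each of these starts, from RefSeq (GRCm38.p6), are shown with matches to the Sox core motif ACAAAG, on either strand, in capitals.

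Sox6 before 116031047, chr7:116031048-116031297, minus strand: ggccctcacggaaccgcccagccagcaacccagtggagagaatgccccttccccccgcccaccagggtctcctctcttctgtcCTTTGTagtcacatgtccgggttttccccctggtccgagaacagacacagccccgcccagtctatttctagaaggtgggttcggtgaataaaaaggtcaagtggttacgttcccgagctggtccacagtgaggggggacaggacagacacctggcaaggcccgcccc

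Sox6 before 116038744, chr7:116038745-116038994, minus strand: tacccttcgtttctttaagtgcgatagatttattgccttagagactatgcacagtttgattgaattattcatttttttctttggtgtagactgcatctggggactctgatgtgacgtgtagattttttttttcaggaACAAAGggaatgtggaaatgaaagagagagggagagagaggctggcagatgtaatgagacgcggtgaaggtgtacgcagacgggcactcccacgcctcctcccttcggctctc

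Each window holds 1 match, and 16.5% of the 32851 promoter windows of this length in RefSeq hold at least 1. The match is a description of letters and not a binding site. The RefSeq windows of the upstream start of Wwp2 and of the internal start of Sox5 hold no ACAAAG. The other RefSeq windows of Sox6, before bases 115995086, 115846140, 115824710 and 115801609, hold 2, 1, 2 and 0 matches.

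The annotation changed the level of 2 of the 4 genes by 1.5-fold or more upward in both libraries, Sox6 and Wwp2, where 4.18% of 14763 genes changed so. Sox6 was 3.81-fold higher with M21 than with M4, on 1.17-fold the reads (262 and 314 more reads). Wwp2 was 2.06-fold higher with M21, on 1.30-fold the reads (2549 and 2555 more). In both genes TPM thus moved by more than the reads. The mean transcript length used for the gene was 1654 and 1604 nt with M21 and 5434 and 5324 nt with M4 for Sox6, and 2617 and 2586 nt with M21 and 4280 nt with M4 for Wwp2. M4 holds a single Wwp2 transcript, Wwp2-201, and so had no entry for Wwp2-205. Sox5 had a ratio of 1.00-fold and Sox9 of 0.948-fold, where the median of all shared genes was -0.08 on the log2 scale. Among the shared genes these ratios lay at percentiles 78.5 and 32.8. Sox9 had the same 15706 and 15705 reads under both annotations.

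The leading transcript differed between M21 and M4 for Sox5, Sox6 and Wwp2, 3 of 3 genes with several transcripts in M21, where it differed for 12.0% of 9882 genes. M4 has no entry for the M21 leaders of Sox6 and Wwp2, so in these genes the M4 leader had to be another transcript. In Sox5 the gene level stayed while its parts moved. Sox5-202 had 23.5 and 23.6 TPM with M21 and 1.90 and 1.43 TPM with M4, in which it is 7071 nt long, and the M4 leader was the noncoding Sox5-208 at 18.3 and 19.7 TPM. Other entries passed 5% of Sox5 TPM with M4 alone, each in 1 library: Sox5-203 at 3.17 and 4.12 TPM, Sox5-205 at 3.88 and 2.94 TPM and Sox5-209 at 3.70 and 3.32 TPM. In Sox6 the M4 leaders were Sox6-203 at 7.77 and 9.69 TPM and Sox6-204 at 6.08 and 7.06 TPM, and Sox6-202 had 1.47 and 1.71 TPM. With M21 Sox6-203 was assigned 0 reads, and Sox6-204 had 0.41 and 1.32 TPM. Sox6 transcripts of 500 nt or more summed to 17.5 and 20.7 TPM with M21, close to the whole-gene 16.1 and 19.0 TPM with M4.

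Entries that overlap the genes were checked, since the use of strand in counting is not given in the sources used here. Sox9 has none. Sox5 has 7, of which Gm44068, on the same strand, exceeded 0.5 TPM, at 1.05 and 1.11 TPM. Sox6 has 2, of which the antisense Sox6os did, with 0.32 and 0.78 TPM on 2 and 5 reads. Wwp2 has 3. Among them Rps26-ps1, a processed pseudogene on the opposite strand in the first intron, was listed at 198.6 and 156.8 TPM, near the level of Wwp2 itself, but it may share reads with near-identical copies of Rps26, so its level is uncertain. It overlaps no exon of Wwp2-201 or Wwp2-205.

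Cartilage matrix genes, among them known targets of the Sox trio, had lower TPM in replicate 2. All 17 tested genes of the cartilage matrix list were below their replicate 1 level, with a median log2 ratio of -0.54, against a median of 0.01 over all genes tested. The call was reached by 5 of the 17, all lower in replicate 2, where 0.458% of all genes tested were called in that direction. That share is over genes of all levels. The spread defined above was 1.62 for genes of 1 to 5 TPM and 0.52 for genes of 5 to 20 TPM. Of the called genes, Comp (log2 ratio -1.01) and Epyc (-1.61) lay within the spread of their level. Snorc (-2.44), Acan (-1.05) and Matn1 (-1.31) lay past it. Of the tested genes not called, Col11a2 (-0.84), Hapln1 (-0.72), Matn4 (-0.60), Cnmd (-0.42) and Col11a1 (-0.39) also lay past the spread of their level. So did Col2a1, given below, and the other tested genes not called lay within it. Acan, the large proteoglycan of cartilage, had 8.07 TPM in replicate 1 and 3.90 TPM in replicate 2. Matn1, a matrix linker protein, had 23.97 and 9.65 TPM, and Comp, a cartilage glycoprotein, had 4.52 and 2.24 TPM. Epyc, a small leucine-rich proteoglycan, had 4.39 and 1.44 TPM, and Snorc, a membrane proteoglycan of chondrocytes, had 4.28 and 0.79 TPM on 32 and 6 reads.

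The most abundant matrix genes differed less. Col2a1, collagen II and a direct target of Sox9, had 425.7 and 344.1 TPM (log2 ratio -0.31), past the spread of 0.20 for genes of its level. Col9a3 had 174.7 and 156.6 TPM and Col9a1 165.1 and 152.8 TPM, both chains of collagen IX, while Ucma, a secreted protein of later chondrocytes, was lowest at 0.31 and 0.15 TPM. Against these, Sox9 had 15706 and 15705 reads, and Sox5 and Sox6 had log2 ratios of 0.09 and 0.26. Of 16 partners and upstream regulators of Sox9, 15 were at 1 TPM, led by Ctnnb1 (beta-catenin) at 577.6 and 580.5 TPM, Med25, a Mediator subunit, at 99.5 and 92.6 TPM, and Bmpr1a, a BMP receptor, at 58.0 and 53.8 TPM. Barx2 was lowest at 0.95 and 0.86 TPM, and 1 of the 15 tested was called, lower in replicate 2, where 0.458% of all genes tested were: Nkx3-2, a repressor that keeps the cartilage programme on, with 6.82 TPM in replicate 1 and 3.13 TPM in replicate 2. The log2 ratio of Nkx3-2, -1.12, lay within the spread of 1.62 for genes of 1 to 5 TPM. Its mean of 4.98 TPM is at the upper edge of that band, and the ratio is past the spread of 0.52 for genes of 5 to 20 TPM. In the hypertrophic list, all 6 tested genes were lower in replicate 2, as were 7430 of all 15926 genes tested, with a median log2 ratio of -0.39, and 0 were called, where 1.07% of all genes tested were. Ihh, a hedgehog signal of prehypertrophic chondrocytes, had 5.07 TPM in replicate 1 and 2.66 TPM in replicate 2. Its log2 ratio, -0.93 (adjusted exact p = 5.37e-07), was under the fold required and within the spread of 1.62 for genes of 1 to 5 TPM. The list was led by Pth1r at 63.9 and 61.1 TPM, Mef2c at 49.96 and 49.8 TPM and Runx2 at 9.27 and 6.61 TPM, and Col10a1, which marks hypertrophic cells, was lowest at 0.33 and 0.45 TPM.

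Markers of other cell types and other values differed between the pools as well. All 4 tendon markers were lower in replicate 2, with a median log2 ratio of -0.19 and a sum of 114.8 TPM in replicate 1 and 100.2 TPM in replicate 2, and Scx, a tendon factor, had an adjusted exact p of 0.000911. Of the 5 muscle markers 4 were lower in replicate 2, with a median of -0.11 and a sum of 507.8 and 485.4 TPM. The erythroid markers, 3 of 5 lower, summed to 8428 and 8378 TPM, and those of Schwann cells and melanoblasts, 2 of 5 tested lower, to 31.6 and 30.2 TPM. None of these markers was called, where 1.07% of all genes tested were. Tbx5, a forelimb factor, had 39.96 and 28.4 TPM, and the hindlimb factors Tbx4 and Pitx1 had 30.6 and 35.1 TPM and 135.6 and 164.0 TPM, in replicates 1 and 2. The spike-in share of TPM was 7.34% and 5.13%. The part of any of these in the matrix difference was not tested.

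**Figure D5:**
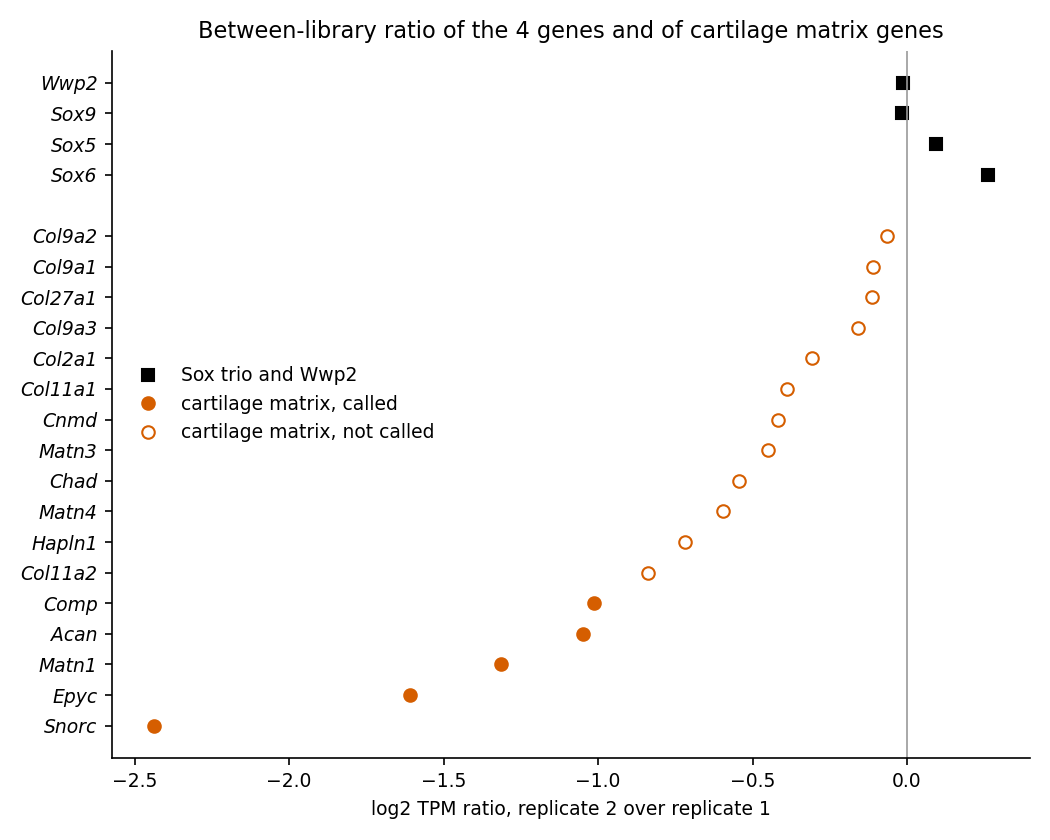
Log2 TPM ratio of replicate 2 over replicate 1 (horizontal axis; 0, no difference) for Wwp2, Sox9, Sox5 and Sox6 (squares) and the 17 tested cartilage matrix genes (circles, filled where called). All circles lie below 0, down to -2.44 for Snorc, while the 4 squares lie between -0.01 and 0.26.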

How the data were processed

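Limb RNA of 2 biological replicates of 1 group was analysed, with replicate numbers from the labels. Expected counts per gene and transcript were deposited by the authors, laid out as RSEM writes them, and rounded here for the test. The authors normalized them to the deposited TPM (levels) and FPKM (an alternative). The authors also deposited each transcript's percent of its gene and bounds of TPM, a signal range that was not used since it does not hold the Sox9 TPM. Mapping to mm10 with GENCODE M21 and M4 is per the labels; aligner, program version and strand: not given in the sources used here.

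Library sizes were edgeR 4.0.16 TMM. Genes at a mean of 1 TPM were tested by an exact two-sided binomial test with Benjamini-Hochberg adjustment. On simulated data it recovered 100% of 3-fold and 99.0% of 5-fold changes and called 22 of 15726 unchanged genes. The simulation used the same relative spread at all levels. Changes of 2-fold, and changes in genes under 5 TPM, were not simulated. Alternatives used DESeq2 1.42.0 size factors, other minima, M4, FPKM, reads and either library alone. The exons were aligned with Biopython 1.88. The effective length is the length less 99 nt. The members, lists and rules were chosen with earlier results of these data known. Named were the 4 genes, their transcripts of 5% or more, overlapping entries over 0.5 TPM, Sox genes at 1 TPM, called list genes, and each list's 3 highest and its lowest. Sox5-204, Wwp2-210, Hdac4, Wwp1, Ihh, Tbx5, Col11a2, Hapln1, Matn4, Cnmd and Col11a1 were named after their values were seen. 1 of the list genes under this rule is not reported here.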

Additional observations from a re-analysis of the deposited data

How the results depend on the processing

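Under the alternatives the 4 genes stayed uncalled between the libraries, with a count of 0 under other scalings, minima, M4, pseudocounts and a 1.5-fold threshold. Of all genes tested, 0.335% (minimum of 5 TPM) to 2.71% (1.5-fold) were called under these. The log2 level ratio of Wwp2 over Sox9, 0.18, turned to -0.94 with M4, -0.51 for counts not divided by length, -0.21 for transcripts with any coding sequence, -0.21 for those with a complete one and -1.61 for reads per kilobase of exon union. That of Sox5 over Sox6, 0.16, was 2.09 with M4, 1.60 for transcripts of 500 nt or more, 1.84 for complete coding sequences and 0.38 for exon union, all past the spread, and -0.23 for transcripts with any coding sequence. By reads the share was 38.4% for Wwp2-205, 44.4% for Sox5-202 and 6.50% for Sox6-211. The Sox5-202 share was 2.25% with M4 and 40.8% without transcripts under 500 nt. The log2 ratio of Sox5 transcripts that skip the exon over those with it, 0.34, was -1.05 with M4, 0.16 by reads, within the spread, and 0.32 to 0.37 with 1 library left out. The M21 over M4 log2 ratio, 1.93 for Sox6 and 1.04 for Wwp2, was 0.22 and 0.38 by reads, under the 1.5-fold limit. The alternatives for the exon, the sums over complete coding sequences, the exon union and the leave-out of short transcripts were added after seeing the data. Of 113 listed genes 93 were at 1 TPM. The causes were not tested, and with 1 library left out no test is possible. No paired analysis was possible because there is 1 group.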
